A study of Mus musculus with 2 samples.

Results

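Galectins, S100 proteins and annexins are families of proteins made in the cytosol. Genes of these families and of actin-binding companions, 10 in all, were followed here in lung group 2 innate lymphoid cells (ILC2s). The genes were Lgals1 and Lgals3 (galectins), S100a4, S100a6, S100a10 and S100a11 (S100 proteins), Anxa1 and Anxa2 (annexins), and Capg and Actn2 (actin-binding proteins), 10 of 32285 genes listed in the data. They were chosen by measured values of these same libraries: Lgals3 for its higher level in the Pac1-/- library, Actn2, Lgals3 and Anxa2 because they led clusters of cells, and the rest as relatives or companions of those. Their values between the genotypes and between the cells are therefore a description and are not tested.

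The study profiled lung ILC2s from wild-type (WT) mice and from mice without the phosphatase PAC1 (Pac1-/-, germline loss of Dusp2, on a C57BL/6J background) by droplet-based scRNA-Seq. Mice were sex- and age-matched young adults, the labels name no treatment, and the cells of several mice of a genotype were mixed before loading. Live cells without lineage markers that carried CD90.2, ST2 and Sca-1 were sorted, and each genotype gave 1 library. Nothing assigns a cell to a mouse, so no difference below has a replicate check and every 95% interval covers counting error only.

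Barcodes were used if they had 500 or more detected genes and no more than 10% of their unique molecular identifiers (UMIs) from mitochondrial genes. This left 8394 of 10866 WT barcodes with 54579034 UMIs and 7087 of 9495 Pac1-/- barcodes with 58338886 UMIs, and the median cell held 4186.5 and 5577 UMIs. Dusp2, the deleted gene, gave 1419 UMIs in WT and 5 in Pac1-/-, so the labels and the gene went together. At least 3 of 10 ILC2 markers were detected per cell in 98.2% of the WT library and 97.8% of the Pac1-/- library. The libraries shared 29 barcodes, 15 of them among the cells used.

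Galectins bind sugars on glycoproteins, and are made in the cytosol and released without a signal peptide. Most S100 proteins change shape when they bind calcium and then hold on to partners, among them annexins, which attach to membranes in the presence of calcium and bring them into contact with actin. S100a11 with Anxa1 is a well-known pair, and S100a10 with Anxa2 is another in which the S100 protein itself does not need calcium. Capg caps the growing ends of actin filaments, and Actn2 cross-links filaments and is best known from the Z-disc of muscle, where alpha-actinin anchors the sarcomere.

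All 10 genes were found in both libraries, and 1 of them, Lgals3, stood apart. Its UMIs rose from 545 in WT to 5345 in Pac1-/-, or from 9.99 CPM (9.16 to 10.9) to 91.6 CPM (89.2 to 94.1). Of the other genes, S100a6 fell by more than 2-fold, and none of the rest changed as much in either direction. CPM is the usual scaling of a gene's UMIs by all UMIs of the cells used, to a fixed total for each library, and since only the 3′ end of a transcript is read, levels of different genes can be set side by side without a correction for length.

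Over 12427 genes with at least 50 UMIs in both libraries together, the median gene was 0.19 higher in Pac1-/- on the log2 scale as counted. Ratios are given from here on relative to this median gene. A gene counts as changed when it differs from the median gene by 2-fold or more, which 2.07% of all genes did upward and 5.09% downward. Of the 10 genes, 1 was 2-fold or more higher (Lgals3) and 1 was 2-fold or more lower (S100a6). The median of the 10 was −0.14, against 0 for all genes, and without Lgals3 it was −0.28. In this contrast the genes were picked, so nothing further is read from these counts.

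**Figure D1:**
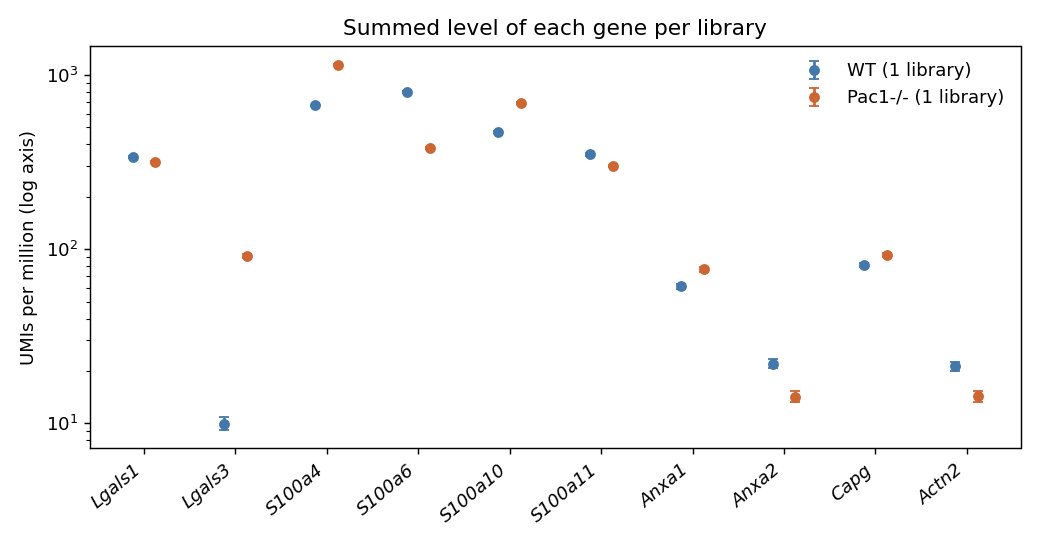
Level of each of the 10 genes in the WT and the Pac1-/- library, in CPM on a log axis. Points are 1 library each and bars are 95% Poisson intervals, smaller than the point for most genes. Lgals3 goes from the lowest level in WT (9.99 CPM) to near Capg in Pac1-/- (91.6 and 92.4 CPM), while S100a6 drops from 797 to 384 CPM.

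Of the galectins, Lgals3 encodes galectin-3, a lectin with a long N-terminal tail through which it forms clusters, and it is abundant in macrophages. It lies on chr14:47367751-47386160 on the plus strand of GRCm38 and is annotated as protein-coding, as are all 10. Its log2 ratio was 3.01 relative to the median gene (2.88 to 3.14), a relative fold of 8.06, and 24 of the 12427 genes had a higher ratio. The Lgals3 ratio was 2.20 without cells that held a T cell marker UMI and 1.72 (1.13 to 2.33) in cells with fewer than 2000 UMIs. After every cell was thinned at random to 1500 UMIs, which equalizes depth and left 7634 WT and 6564 Pac1-/- cells, the share of cells with a Lgals3 UMI was 1.28% in WT (1.04 to 1.56, exact binomial) and 10.8% in Pac1-/- (10.1 to 11.6). Without thinning these shares were 4.96% and 32.5%. Also without thinning, where Pac1-/- cells were deeper, 26 WT cells and 666 Pac1-/- cells had 3 or more Lgals3 UMIs, and the mean over cells with any UMI was 1.31 and 2.32. After thinning that mean was 1.13 and 1.21, a measure that is near 1 for any gene this rare and cannot tell more cells with Lgals3 from more Lgals3 per cell.

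Lgals1 encodes galectin-1, a dimeric lectin known as a regulator of T cell survival, and lies on chr15:78926725-78930465. Its level was 338 CPM (333 to 343) in WT and 318 CPM (314 to 323) in Pac1-/-. The relative log2 ratio was −0.28 (−0.31 to −0.25), so the galectin genes of the group went opposite ways.

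The S100 genes held the 4 highest levels of the group in WT and the 3 highest in Pac1-/-, where Lgals1 was above S100a11, and their ratios differed in sign. S100a4, whose protein binds non-muscle myosin and is linked to cell motility, went from 670 CPM (663 to 677) to 1145 CPM (1137 to 1154), a relative log2 ratio of 0.59 (0.57 to 0.60). S100a6, the calcium-binding protein calcyclin, went from 797 CPM (790 to 805) to 384 CPM (379 to 389), a relative log2 ratio of −1.24 (−1.27 to −1.22). S100a4 lies at chr3:90603771-90606045 and S100a6 at chr3:90612882-90624181, both on the plus strand with S100a5 between them, and S100a6 was the most abundant of the 10 in WT and S100a4 in Pac1-/-. S100a4 overlaps the annotated gene Gm42674 on the same strand, for which no value was used here.

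The other S100 genes lie together further along chromosome 3. S100a10, the light chain of the annexin A2 complex, lies on chr3:93555080-93564643 and went from 469 CPM (463 to 475) to 692 CPM (685 to 699), a relative log2 ratio of 0.37 (0.35 to 0.40). S100a11, the annexin A1 partner, lies on chr3:93520488-93526287 and went from 350 CPM (345 to 355) to 302 CPM (297 to 306), a relative log2 ratio of −0.40 (−0.43 to −0.37). In each of these clusters 1 gene was above and 1 below the median gene.

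The annexins were less abundant and also differed in sign. Anxa1 encodes annexin A1, a phospholipid-binding protein induced by glucocorticoids that signals through formyl peptide receptors. It lies on chr19:20373428-20390944 and was at 61.2 CPM (59.1 to 63.3) in WT and 76.6 CPM (74.4 to 78.9) in Pac1-/-, a relative log2 ratio of 0.14 (0.07 to 0.20). This sign depended on depth, since in cells with fewer than 2000 UMIs the ratio was −0.62 (−1.18 to −0.09). It was 0.12 (−0.11 to 0.34) in cells of 2000 to 4000 UMIs and 0.11 (−0.01 to 0.24) in those of 4000 to 8000. In deeper cells it was 0.17 (0.08 to 0.25). Anxa2 encodes annexin A2, which joins with the S100a10 protein at the plasma membrane. It lies on chr9:69453620-69491795 and was at 22.1 CPM (20.8 to 23.4) and 14.3 CPM (13.3 to 15.3), a relative log2 ratio of −0.82 (−0.95 to −0.69). It was −0.26 without cells that held a T cell marker UMI and −0.04 (−0.78 to 0.68) in cells with fewer than 2000 UMIs. S100a10 and Anxa2, which encode the parts of 1 complex, thus had ratios of opposite sign.

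Of the actin-binding genes, Capg (chr6:72544391-72562983) was at the median gene. It gave 81.5 CPM (79.1 to 83.9) and 92.4 CPM (89.99 to 94.9), a relative log2 ratio of −0.01 (−0.06 to 0.05). Actn2 (chr13:12269426-12340760, minus strand) went from 21.2 CPM (20.03 to 22.5) to 14.3 CPM (13.3 to 15.3), a relative log2 ratio of −0.76 (−0.89 to −0.63). The share of cells with Actn2 after thinning was 3.12% in WT (2.74 to 3.53) and 1.83% in Pac1-/- (1.52 to 2.18), a difference of −1.29 percentage points (−1.81 to −0.771). The size of this difference depended on depth, with −0.758 at 1000 UMIs, −2.50 at 3000 UMIs and −3.02 without thinning. Without thinning, the cells with Actn2 held a mean of 1.28 UMIs of it in WT and 1.51 in Pac1-/-, where cells were deeper.

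The levels in WT ran from S100a6 through S100a4, S100a10, S100a11, Lgals1, Capg, Anxa1, Anxa2 and Actn2 to Lgals3. In Pac1-/- the order was S100a4, S100a10, S100a6, Lgals1, S100a11, Capg, Lgals3, Anxa1, Actn2 and Anxa2. The neighbours whose intervals overlapped were Anxa2 and Actn2 in both libraries and Capg and Lgals3 in Pac1-/-. The 9 genes other than Lgals3 together made up 2810.5 CPM in WT and 3038 CPM in Pac1-/-, a log2 ratio of 0.11 as counted. Against the median gene this was −0.08, so its sign depended on the scaling. Besides Lgals3, S100a4, S100a10 and Anxa1 lay above the median gene.

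**Figure D2:**
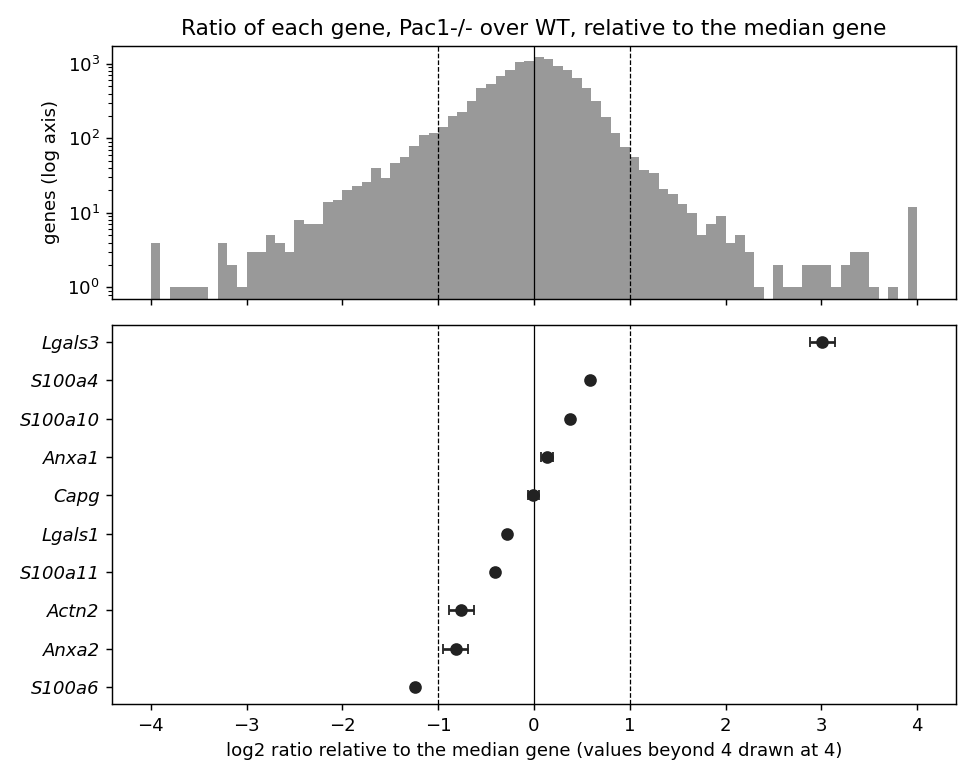
Log2 ratio of Pac1-/- over WT relative to the median gene, for all 12427 genes compared (upper panel, number of genes on a log axis, values beyond 4 drawn at 4) and for the 10 genes with 95% intervals from counting error (lower panel). Dashed lines mark 2-fold. Lgals3 lies at 3.01 and S100a6 at −1.24, and the other 8 lie between the dashed lines.

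RefSeq promoters (GRCm38.p6) show the sequence upstream of the RefSeq start of a gene. For Lgals3, Capg and Anxa1 this start lies within the gene span given above, and so does the whole promoter. Of the 10 genes, 8 have an entry, and Lgals1 and S100a10 have none. Shown are the bases upstream of the RefSeq start that lie in no annotated exon, 5′ to 3′ in the direction of the gene, for Lgals3, which was alone in rising 2-fold, for the nearby genes S100a4 and S100a6, whose ratios had opposite signs, and for Actn2, by which cells are divided below. Capitals mark a GC box.
Lgals3 (chr14:47373610-47373812, plus strand): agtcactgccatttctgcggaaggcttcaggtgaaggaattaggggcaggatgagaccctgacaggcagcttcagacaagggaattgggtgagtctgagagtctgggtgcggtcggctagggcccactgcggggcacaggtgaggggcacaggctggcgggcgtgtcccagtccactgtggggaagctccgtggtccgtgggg
S100a4 (chr3:90603520-90603769, plus strand): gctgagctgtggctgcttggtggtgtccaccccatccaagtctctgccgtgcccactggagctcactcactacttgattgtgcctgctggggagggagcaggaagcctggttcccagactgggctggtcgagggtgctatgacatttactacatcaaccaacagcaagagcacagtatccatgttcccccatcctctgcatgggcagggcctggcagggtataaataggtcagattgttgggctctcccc
S100a6 (chr3:90612644-90612881, plus strand): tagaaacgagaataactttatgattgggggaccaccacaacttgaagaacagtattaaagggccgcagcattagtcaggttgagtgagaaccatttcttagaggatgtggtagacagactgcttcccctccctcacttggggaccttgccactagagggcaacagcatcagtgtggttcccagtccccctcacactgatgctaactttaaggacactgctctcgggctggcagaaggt
Actn2 (chr13:12340761-12340982, minus strand): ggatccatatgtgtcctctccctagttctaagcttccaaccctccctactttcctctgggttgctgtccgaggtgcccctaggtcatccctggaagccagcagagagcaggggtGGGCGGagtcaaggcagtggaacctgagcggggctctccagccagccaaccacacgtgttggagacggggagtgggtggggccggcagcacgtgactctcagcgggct

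Over the full 250 bases before each start and on both strands, the cAMP response element TGACGTCA and its core TGACG, which is part of it, were in 0 of the 8 promoters, against 1.55% and 17.8% of all 32851 promoters. The AP-1 motif TGANTCA was in the promoters of Anxa2 and S100a11, 2 of 8, against 6.75% of all promoters. The GC box GGGCGG was in those of Actn2, Anxa2, Lgals3 and S100a11, 4 of 8, against 32.7% of all. In Lgals3 it lies 7 bases before the RefSeq start, in a stretch that is annotated as exon and not shown. The G and C content of the stretches shown was 63.1% for Lgals3, 57.2% for S100a4, 50% for S100a6 and 62.6% for Actn2, and the median of all promoters was 52.4%. These matches are a description of the windows.

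Next, cells were divided by Actn2, to see whether the rise of Lgals3 belonged to the cells that carry it. Status was read after thinning, which gave 238 Actn2+ cells of 7634 in WT and 120 of 6564 in Pac1-/-, and levels were computed from all UMIs of those cells. In Actn2+ cells Lgals3 was at 21.5 CPM (15.1 to 29.6) in WT and 194 CPM (169 to 222) in Pac1-/-. In Actn2- cells it was at 9.35 CPM (8.54 to 10.2) and 89.2 CPM (86.7 to 91.7). The level was higher in Actn2+ cells of both libraries, and the relative log2 ratio between the genotypes was 3.03 (2.53 to 3.58) in Actn2+ and 3.06 (2.93 to 3.20) in Actn2- cells. The rise was thus of similar size with and without an Actn2 UMI after thinning, as far as the wide interval in Actn2+ cells shows. Actn2- cells still held 806 of 1142 Actn2 UMIs in WT and 618 of 829 in Pac1-/-. They therefore include cells with Actn2 that thinning left out, and are not a class that lacks it.

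Cells were also divided by Il5, which encodes the type 2 cytokine IL-5 and was itself lower in Pac1-/- (718 and 405 CPM). The Lgals3 ratio between genotypes was again similar in both classes. Unlike with Actn2, the Lgals3 levels of the classes were close within each library. Il5+ cells made up 32.8% of thinned WT cells and 19.8% of thinned Pac1-/- cells. Lgals3 was at 9.54 CPM (8.30 to 10.9) in Il5+ and 9.88 CPM (8.81 to 11.04) in Il5- cells of WT, and at 89.1 CPM (84.4 to 94.1) and 91.9 CPM (89.1 to 94.8) in those of Pac1-/-. The ratios between genotypes were 3.07 (2.86 to 3.29) and 3.05 (2.88 to 3.22). With both genes read together, the Lgals3 ratio was 3.08 in the 4963 WT and 5170 Pac1-/- cells with neither and 2.57 (1.66 to 3.56) in the 69 and 25 cells with both. In the cells with both, S100a4 was also 2-fold or more higher, at 1.16 (0.98 to 1.33). When the levels of the Pac1-/- cells were weighted by the Actn2 mix of WT cells, the log2 ratio as counted went from 3.23 to 3.25, and by the Il5 mix to 3.22. Both weightings left the ratio close to its value in all thinned cells, and neither could have moved it far. Actn2+ cells held only 3.21% of the UMIs in WT and 1.91% in Pac1-/-, and the Il5 classes had close Lgals3 levels. Nothing is concluded from these weightings.

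**Figure D3:**
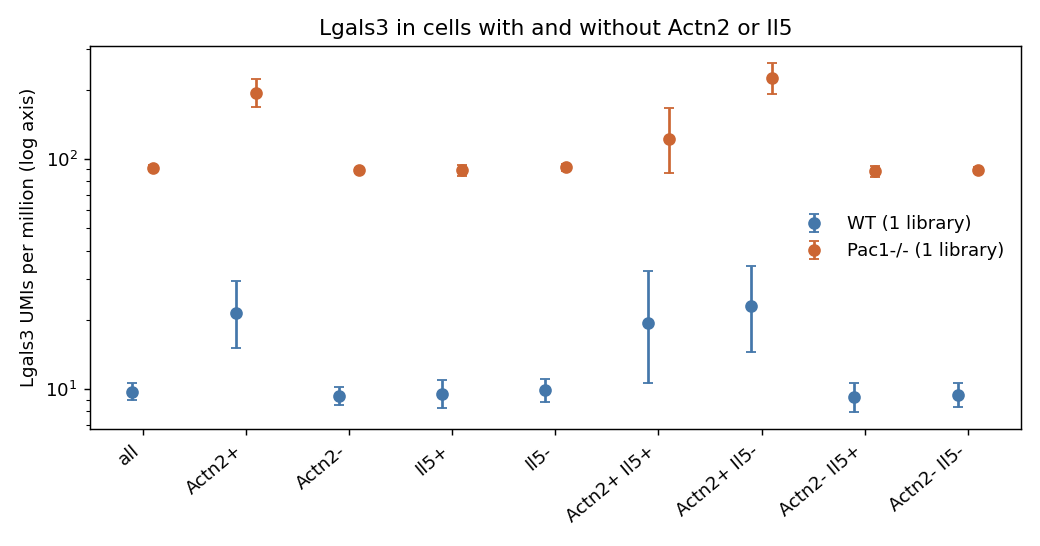
Lgals3 level in CPM (log axis) in cells with and without a UMI of Actn2, Il5 or both, read after thinning, in 1 WT and 1 Pac1-/- library. Bars are 95% Poisson intervals. In each class the Pac1-/- level is above the WT level, and in both libraries the Actn2+ classes are the highest.

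For the other genes the ratio between genotypes by Actn2 status followed that in all cells, with some shifts. S100a4 had a relative log2 ratio of 0.83 (0.73 to 0.93) in Actn2+ and 0.58 (0.56 to 0.60) in Actn2- cells. S100a6 had −0.86 (−0.97 to −0.74) and −1.25 (−1.27 to −1.22), so it was lower in Pac1-/- in both classes, by less in Actn2+ cells. Lgals1 was above the median gene in Actn2+ cells at 0.24 (0.10 to 0.38) and below it in Actn2- cells at −0.29 (−0.32 to −0.26), with 550 and 716 CPM in Actn2+ cells of WT and Pac1-/- and 333 and 311 CPM in Actn2- cells. Anxa2 had −0.36 (−1.02 to 0.28) in Actn2+ cells, where 60 and 33 UMIs leave its direction undetermined. In Il5+ and Il5- cells the ratios were −1.20 and −1.24 for S100a6 and 0.63 and 0.58 for S100a4. They lay further apart for Anxa2, at −0.60 (−0.84 to −0.37) and −0.91 (−1.07 to −0.76), and for Anxa1, at 0.24 (0.12 to 0.36) and 0.11 (0.03 to 0.19), with overlapping intervals.

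Within each library the group went with Actn2. Of the 9 other genes, all 9 were above the median gene in Actn2+ over Actn2- cells in WT and all 9 in Pac1-/-, where by construction as many genes lie above as below. Their median relative log2 ratio was 0.66 in WT and 0.92 in Pac1-/-. In WT, 1 of 9 (Lgals3) was 2-fold or more higher, against 1.81% of the 11296 genes compared, and in Pac1-/- 3 of 9 (Lgals1, Lgals3 and Anxa2), against 2.41% of 11453 genes. Lgals1 was at 716 CPM in Actn2+ and 311 CPM in Actn2- cells of Pac1-/-, a ratio of 1.16 (1.06 to 1.27), and at 550 and 333 CPM in WT, a ratio of 0.69 (0.60 to 0.79). Capg was at 143 and 79.4 CPM in WT and 177 and 90.9 CPM in Pac1-/-. Since clusters of these cells were among the values that brought Actn2 and its companions together, this concordance was partly built into the choice.

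Cells with Lgals3 showed the same direction. In the 98 Lgals3+ and 7536 Lgals3- WT cells and the 710 and 5854 Pac1-/- cells, all 9 other genes were above the median gene in Lgals3+ cells, with medians of 0.87 and 0.73. In WT 4 of 9 were 2-fold or more higher (Lgals1, S100a6, Anxa2 and Actn2), against 5.21% of all genes, and in Pac1-/- 2 of 9 (Anxa2 and Actn2), against 0.437%. Anxa2 differed most, with 87.5 CPM in Lgals3+ and 21.1 CPM in Lgals3- cells of WT, a ratio of 1.98 (1.56 to 2.36), and 35.5 and 11.2 CPM in Pac1-/-, a ratio of 1.64 (1.42 to 1.86). S100a6 was at 1809.97 and 786 CPM in WT and 658 and 348 CPM in Pac1-/-. S100a6 was therefore higher in the cells with Lgals3 in each library while it was lower in the library with more Lgals3.

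By Il5 the group did not divide. The median ratio of the 10 genes in Il5+ over Il5- cells was −0.01 in WT and 0.07 in Pac1-/-, and 0 of 10 were 2-fold or more higher in either library, against 0.699% and 1.43% of all genes. The ratio furthest from 0 was that of Anxa2 in Pac1-/- at 0.30 (0.07 to 0.53), with 14.9 and 13.6 CPM.

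**Figure D4:**
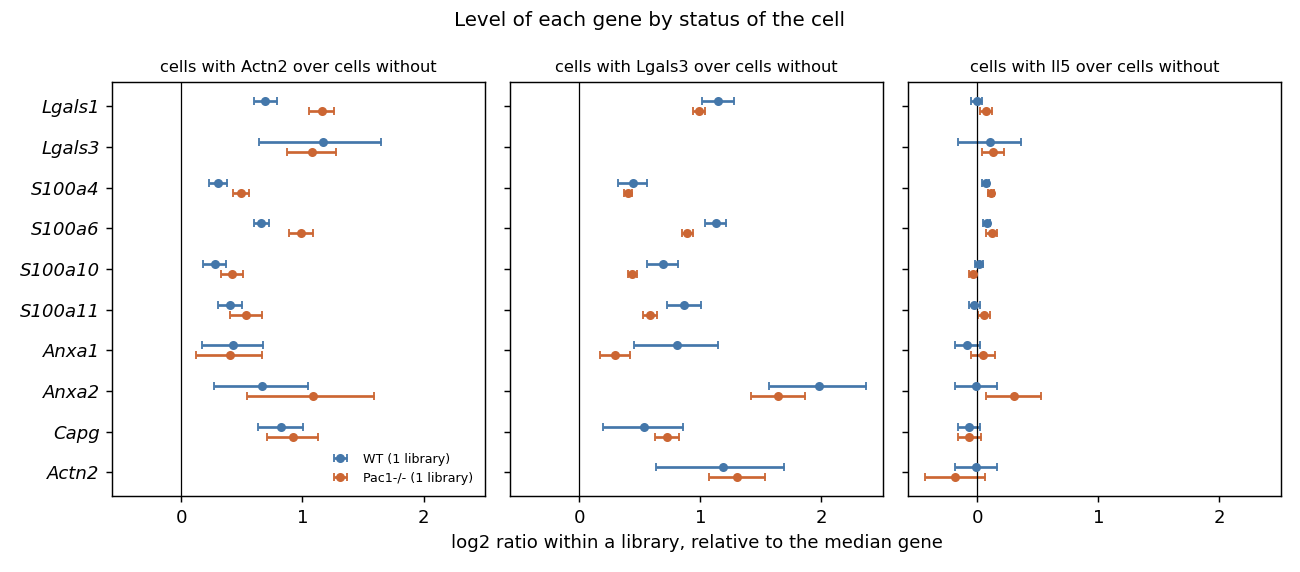
Log2 ratio of each gene between cells with and without a UMI of Actn2 (left), Lgals3 (middle) or Il5 (right), within the WT and within the Pac1-/- library, relative to the median gene. Bars are 95% intervals from counting error. In the left and middle panels every gene lies above 0 in both libraries, with medians of 0.66 and 0.92 by Actn2 and 0.87 and 0.73 by Lgals3, and in the right panel the genes lie around 0.

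Macrophages also express galectin-3, so their markers were read beside Lgals3. The summed level of 9 macrophage markers was 1.997 CPM in WT and 6.72 CPM in Pac1-/-, with C1qa, C1qb and Csf1r at 0 in WT and Marco and C1qb at 0 in Pac1-/-. In WT it was 75.0 CPM in Lgals3+ and 0.734 CPM in Lgals3- cells, and in Pac1-/- 10.0 and 4.79 CPM. The 6 neutrophil markers gave 0.183 and 0.120 CPM, and S100a8 and Retnlg were at 0 in both libraries. Without the cells that held a UMI of either list, the Lgals3 ratio between genotypes was 3.09, and all 9 other genes stayed above the median gene in Lgals3+ cells of both libraries, with medians of 0.89 in WT and 0.72 in Pac1-/-. Anxa2 in Lgals3+ cells of WT went from 1.98 to 1.72 when 3 of the 98 cells were left out. The T cell list, of which Trbc1 and Trbc2 are also transcribed in ILC2s, was at 700 and 965 CPM with 710 and 703 CPM in Lgals3+ and Lgals3- cells of WT and 1051 and 956 CPM in those of Pac1-/-. Its higher sum came mostly from Trbc1 (292 and 463 CPM) and Trbc2 (261 and 386 CPM), and Trdc (5.28 and 10.7 CPM) was also higher. Cd3g (119 and 93.7 CPM), Cd3e (10.5 and 5.88 CPM), Cd3d (4.23 and 2.25 CPM) and Trac (8.08 and 3.05 CPM) were lower in Pac1-/-. The erythroid list was at 76.1 and 269 CPM in WT and Pac1-/-, the mast cell and basophil list at 13.2 and 28.6 CPM, the B cell list at 67.1 and 92.7 CPM, the endothelial list at 42.2 and 38.9 CPM, and the epithelial list at 54.1 and 82.2 CPM, within which Sftpc, a surfactant gene, had 15 and 675 UMIs. In Pac1-/- the erythroid list was at 70.4 CPM in Lgals3+ and 295 CPM in Lgals3- cells, the epithelial list at 43.7 and 85.8 CPM, the B cell list at 74.2 and 95.2 CPM, the endothelial list at 37.6 and 38.7 CPM, and the mast cell and basophil list at 30.7 and 28.1 CPM, so of these only the last was higher in Lgals3+ cells. By Actn2 in WT, the B cell list was at 116 CPM in Actn2+ and 65.5 CPM in Actn2- cells. The macrophage list was at 4.64 and 1.52 CPM in those cells. In Pac1-/- both lists were lower in Actn2+ cells, at 65.2 and 93.3 CPM and at 0 and 5.50 CPM. The part of these lists in the differences was not tested. In the 1342 WT and 723 Pac1-/- cells without a T cell marker UMI the Lgals3 ratio was 2.20.

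Co-detection in thinned cells used the same calls of Actn2, Lgals3 and Il5 as the divisions above, so it is not a separate result. For each pair, the number of cells with UMIs of both genes was divided by the number that the separate shares give. Lgals3 and Actn2 were found together in 10 WT cells, 3.27 times the product of their shares (1.57 to 6.02), and in 36 Pac1-/- cells, 2.77 times (1.94 to 3.84). The Pac1-/- value was 1.59 with cells thinned to 1000 UMIs and 5.43 without cells that held a T cell marker UMI. Lgals3 and Anxa2 were found together in 12 WT cells, 3.85 times (1.99 to 6.72), and in 32 Pac1-/- cells, 2.67 times (1.82 to 3.76). Of the Actn2+ cells 10 of 238 held Lgals3 in WT and 36 of 120 in Pac1-/-, against 1.19% and 10.5% of the Actn2- cells. Most cells with Lgals3 thus had no Actn2 UMI at this depth.

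Over all 45 pairs of the 10 genes the median ratio was 1.29 in WT and 1.27 in Pac1-/-, and the range was 1.09 to 3.85 and 1.06 to 2.77, so no pair was found together less often than its shares give. The intervals lay above 1 for 40 pairs in WT, against 2.03% of all pairs of the 7318 genes found in at least as many cells as the rarest of the 10, and for 36 in Pac1-/-, against 1.97% of the pairs of 6959 such genes. The median ratio over all those pairs was 1.003 and 1.004. This background was added after the values were seen, and several of the 10 genes are abundant, which narrows their intervals. It also holds genes found in as few as 98 WT and 111 Pac1-/- cells, so it is not matched for abundance. The 10 genes were picked partly from clusters of these cells, so the excess was partly built into the choice. The strength was modest, with a median phi coefficient of 0.06 in WT and 0.08 in Pac1-/- and a highest of 0.25 and 0.21. For pairs of a member with Il5 the median ratios were 0.95 and 0.97. These values describe cells of 1 library each, which share depth after thinning but also sort, pooling and free RNA.

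**Figure D5:**
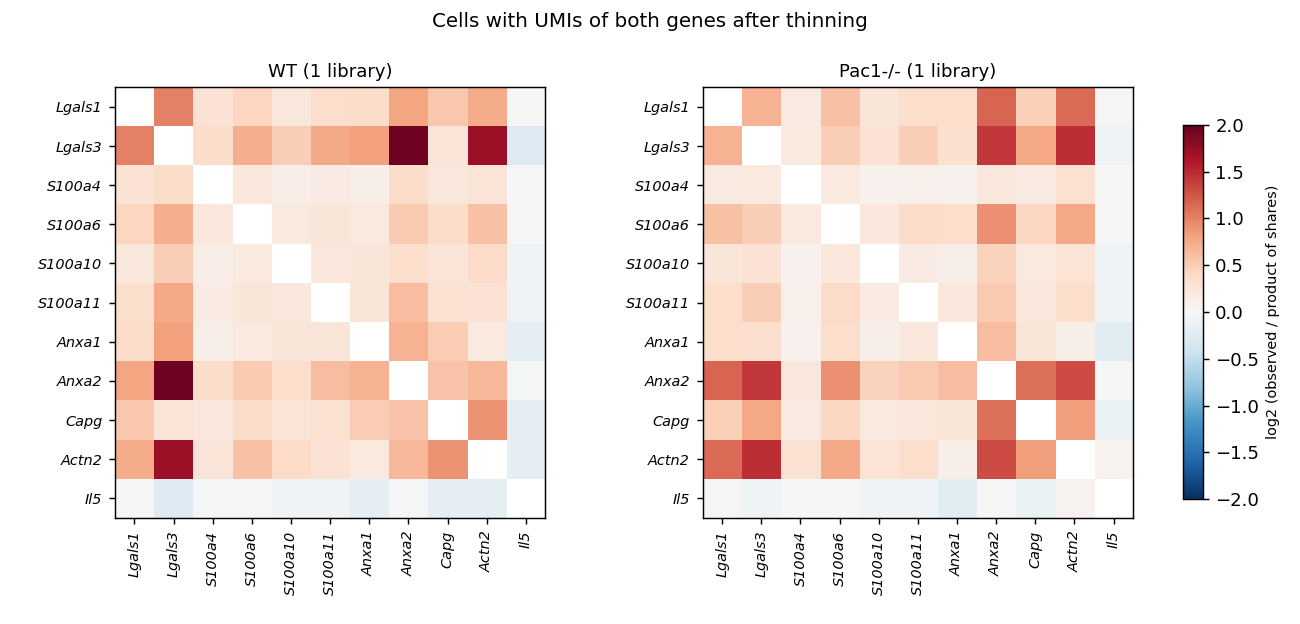
Co-detection of each pair of genes in thinned WT (left) and Pac1-/- cells (right), as the log2 of the observed share of cells with both genes over the product of the separate shares. Red marks pairs found together more often, and the darkest red joins Lgals3 to Anxa2 (3.85 times in WT) and to Actn2 (2.77 times in Pac1-/-), while the row of Il5 is near white.

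Per cell, 8 of the genes (all but Lgals3 and Actn2) were counted as detected or not after thinning. The mean was 2.51 genes in WT and 2.47 in Pac1-/-, 3.46 and 3.53 in Actn2+ cells, and 3.98 and 3.28 in Lgals3+ cells. The spread over cells was wider than counting alone gives, with a variance of thinned UMIs over their mean of 2.72 for S100a6 in WT and 2.13 in Pac1-/-, and 1.74 and 2.22 for Lgals1, where counting alone gives a value near 1. For Anxa1 it was 1.09 and 1.10, and for Lgals3 2.05 in WT and 1.31 in Pac1-/-. The WT value for Lgals3 rested on 1 cell with 11 UMIs of it, and was 1.07 without that cell, while in Pac1-/- it was 1.28 without the highest cell.

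By Pearson r of log2(UMIs + 1) over thinned cells, Lgals3 was most like Anxa2 (0.11), S100a6 (0.11) and Lgals1 (0.10) within the group in WT and most like Lgals1 (0.19), S100a6 (0.16) and S100a4 (0.15) in Pac1-/-. With the summed UMIs of the other 9 genes r was 0.12 and 0.22. Outside the group, among genes detected in at least 5% of thinned cells, the most like were Vim, Crip1, Ahnak, Tmsb4x and Lrrfip1 in WT and Crip1, Tmsb4x, Actb, Vim and Cd52 in Pac1-/-. The likeness was weak, and for these genes outside the group it was at most 0.08 in 7634 WT and 0.13 in 6564 Pac1-/- cells. For the summed UMIs of the other 9 genes the leading genes were Crip1 (0.39), Tmsb4x, Actb, Ahnak and Cd52 in WT and Tmsb4x (0.38), Actb, Crip1, Vim and Sh3bgrl3 in Pac1-/-. Vim (vimentin), Actb (beta-actin) and Tmsb4x (thymosin beta-4, which binds actin monomers) are genes of the cytoskeleton, and Crip1 encodes a small LIM-domain protein. Abundant genes can enter such a ranking more easily than rare ones.

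The wider families were read against the 2.07% of all genes that were 2-fold or more higher and the 5.09% that were as much lower, which leaves little room for a call in lists this short. Of 11 other genes listed with the galectins, 9 were in the data and 6 were compared, and 0 were 2-fold higher. The genes compared include Lgals3bp, at −0.32, which encodes a binding protein of galectin-3 and not a galectin. All 6 lay below the median gene, with a median of −0.64 and with Lgals7 at −1.50 (3.41 and 1.37 CPM) and Lgals4 at −1.24 (2.73 and 1.32 CPM) past 2-fold, while Lgalsl, at −0.02, was above 0 as counted (0.17). Of 13 other genes listed with the S100 family 3 were compared, S100a1 at −0.32, S100a13 at −0.06 and S100pbp, which encodes a binding protein of the family and not a member, at 0.29, and none passed 2-fold. Of 13 other annexins and partners 6 were compared, from −0.84 for Ahnak, a giant scaffold that binds the S100a10 and annexin A2 complex (1218 and 772 CPM), to 0.25 for Anxa11. Fpr1 and Fpr2, receptors for annexin A1, had 0 UMIs in both libraries.

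A list of 35 other actin-binding genes also holds the actin genes Actb and Actg1, and Vim, Lmna and Crip1. Of these 35 genes 31 were compared, 22 below and 9 above the median gene, with a median of −0.23. Crip1, at 990 and 489 CPM, and Pls3, which encodes plastin 3, at 3.79 and 2.14 CPM, were 2-fold lower with ratios of −1.20 and −1.01. Tmsb4x was highest at 0.54, and 0 of 31 passed 2-fold upward, against 2.07% of all genes. Actn4, the alpha-actinin of non-muscle cells, was at 94.8 and 68.0 CPM, well above Actn2, with a ratio of −0.67, and Actn1 had 53 and 54 UMIs.

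Around Lgals3 on chromosome 14, 11 genes start within 500 kb and were compared, with a median ratio of −0.75, and 4 of 11 passed 2-fold in either direction, against 7.16% of all genes. Samd4 (8.04 and 1.85 CPM) was at −2.31, the transcript 2810457G06Rik at −1.80 and Gch1, which starts the synthesis of tetrahydrobiopterin (106 and 59.4 CPM), at −1.02. Dlgap5, a mitotic spindle gene, was higher in Pac1-/- at 2.07 (1.58 to 2.59), with 41 UMIs in WT and 210 in Pac1-/-. It lies on the minus strand at chr14:47387779-47418407 and ends 1619 bases beyond the end of Lgals3. Of other genes of dividing cells, Mki67 gave 5.002 and 5.57 CPM in WT and Pac1-/-, Top2a 9.67 and 8.91 CPM, Birc5 1.25 and 1.41 CPM, and Cdk1 0.330 and 0.480 CPM from 18 and 28 UMIs. Within 1000, 2000 and 5000 kb of Lgals3, windows added after the values were seen, 5 of 17, 5 of 25 and 10 of 60 genes passed 2-fold. Around the other members the share within 500 kb ran from 0% to 21.4%, the highest for 14 genes around S100a4.

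Free RNA in droplets can give UMIs to cells that do not transcribe a gene, so levels were compared with those in cells of another type. Cells with UMIs of at least 3 of 6 B cell markers numbered 11 in WT and 28 in Pac1-/-, with median depths of 4524 and 5615 UMIs against 4445 and 5782.5 in the other cells. A Lgals3 UMI was found after thinning in 0 of the 11, which allows a share of up to 27.3%, and in 2 of the 28 (7.14%, 0.877 to 23.5), an interval that holds the 10.8% of the library. From all UMIs, Lgals3 was at 15.5 CPM in the 11 WT cells (3 UMIs) and 112 CPM in the 28 Pac1-/- cells (41 UMIs). Many of these cells also held Gata3 or Il1rl1 transcripts of ILC2s, so the 5 WT and 11 Pac1-/- cells without either were examined as well, a choice made after the values were seen. In the 11 Pac1-/- cells S100a4 was at 22.5 CPM (0.571 to 126), far below the 1145 CPM of the library, and S100a6 and Lgals1 were also at 22.5 CPM. S100a10 (293 CPM, 156 to 501) and S100a11 (248 CPM, 124 to 444) were found in these cells too. Lgals3 gave 2 UMIs, both in 1 cell, or 45.1 CPM (5.46 to 163), so the depth of these few cells cannot separate its level from free RNA, whereas the interval of S100a4 ends below its library level.

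Lgals3 was higher in Pac1-/- in all 4 classes of cell depth. In cells with fewer than 2000 UMIs the relative ratio of Lgals3 was 1.72 (1.13 to 2.33), with 34.4 CPM in WT and 116 CPM in Pac1-/-. It was 2.59 in cells of 2000 to 4000 UMIs, 3.17 in those of 4000 to 8000 and 3.08 in deeper cells. S100a6 was lower in Pac1-/- in all 4 depth classes, from −1.74 to −1.08. Lgals1 was at −1.18 in cells of 2000 to 4000 UMIs and between −0.31 and −0.14 in the other classes.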

How the data were processed

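Measured were UMIs per gene and cell in 1 WT and 1 Pac1-/- library of sorted lung ILC2s (10x Genomics 3′ chemistry, version 3.1 per the labels). The authors deposited raw UMI counts, made with Cell Ranger (6.1.1 in the submitters' processing notes and 4.0.0 in the file header) on mm10, with no normalization. The annotation release is not given in the sources used here, and coordinates came from GENCODE for GRCm38, matched on identifier.

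Here counts were summed over cells passing both limits (500 or more detected genes, 10% or less mitochondrial UMIs), doublets included, and divided by the library total. Computation used Python 3.11.15, matplotlib 3.10.9, scikit-learn 1.9.0, pandas 2.3.3, scipy 1.17.1 and numpy 2.4.6. Levels carry exact Poisson, ratios exact conditional binomial and shares exact Clopper-Pearson intervals at 95%, which cover counting error only. A count of 0 allows up to 3 counts. With 1 library per genotype there was no test. Genes needed 50 UMIs over both libraries. Thinning to 1500 UMIs, chosen so that each library kept at least 90% of its cells, left out 760 WT and 523 Pac1-/- cells. The ratio, interval and thinning steps were tested on simulated data. The members and gene lists were chosen with earlier results of these data known. All 10 members are named, with, from the lists and within 500 kb of Lgals3, genes past 2-fold (for the lists, also the ends of the range and some chosen after their values were seen), and the 5 genes most like a pattern. Alternatives were other cell filters (no filter, or 1000 to 2500 genes and under 5% mitochondrial UMIs as in the study), removal of doublets scored at 0.8% per 1000 barcodes or of cells with markers of other types, other scalings and other thinning depths.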

Additional observations from a re-analysis of the deposited data

Results flagged for a closer look

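Barcodes that failed the filter on detected genes or mitochondrial UMIs entered the alternative without a filter and no other comparison, and they also held the genes of the group. In the 2472 WT and 2408 Pac1-/- barcodes of this kind Lgals3 was at 16.8 CPM in WT and 74.6 CPM in Pac1-/-, a relative log2 ratio of 2.03 (1.43 to 2.68). Actn2 was at 8.11 CPM in WT and 8.23 CPM in Pac1-/-, from 13 and 16 UMIs. In these barcodes S100a6 was likewise lower in Pac1-/-, at 767 and 308 CPM. Whether they are damaged cells or droplets with free RNA was not tested.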

How the results depend on the processing

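The relative log2 ratio of Lgals3 (3.01) stayed above 2-fold under all 11 alternatives, with 2.20 without cells that had a T cell marker UMI, 3.20 as counted and 2.75 with cells weighted equally, and in cells without Actn2 (3.06) it was 2.21 without cells with a T cell marker UMI and 3.25 as counted. The T cell alternative kept 1342 WT and 723 Pac1-/- cells, since Trbc1 and Trbc2 UMIs were found in most cells. The median of the 10 genes (−0.14) was −0.21 with 1000 to 2500 genes per cell, −0.19 without cells with a T cell marker UMI, −0.20 with cells weighted equally and 0.047 as counted, where the median gene is at 0.19. Lgals3 was the 1 gene 2-fold or more higher, and S100a6 stayed 2-fold or more lower, under all 11. Anxa2 (−0.82) passed 2-fold downward under 2 alternatives and ranged from −1.08 to −0.26, Actn2 passed it under 1, and Capg kept its sign under 8. No sign changed for the other 9 genes. The difference in the share of Actn2+ cells (−1.29 points) was −3.02 without thinning, −0.758 at 1000 UMIs and −2.50 at 3000 UMIs, as the share grows with depth. The co-detection ratio of Lgals3 and Actn2 in Pac1-/- (2.77) was 5.43 without cells with a T cell marker UMI and 1.59 at 1000 UMIs; the cause was not tested. Leaving out barcodes shared by the libraries or cells under 2000 UMIs was added after the data were seen and left Lgals3 at 3.01 and 3.08. No paired analysis was possible because each genotype has 1 library. Depth limits Lgals3 in WT most, where 98 thinned cells and 545 UMIs carry its level.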
